A study of Mus musculus with 6 samples.

Results

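The DNA repair and checkpoint genes of type-2 conventional dendritic cells (cDC2s) were examined in cells of Arhgef1-/- and wild-type mice. The group was a list of 42 gene symbols covering homologous recombination, the Fanconi anaemia pathway, the checkpoint kinases, fork protection, mismatch repair, base excision repair and end joining. Of these, 41 were among the 14788 gene symbols of the count table. The symbol Rmi2 was not, and was skipped. All 41 passed the filter on low counts and were tested.

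RNA was sequenced from splenic cDC2s of C57BL/6 mice, with 3 libraries from Arhgef1-/- cells (knockout, KO) and 3 from wild-type (WT) cells. These dendritic cells chiefly prime CD4 T cells. The Arhgef1 protein switches on the GTPase RhoA when certain G-protein-coupled receptors signal. The sources used here do not give the age of the mice, the deleted part of Arhgef1, the sort of the cells or any pooling of animals. Whether each library is a separate animal is not stated either, so p-values measure the spread between these libraries, which may be technical. Total counts ran from 8408325 to 11714365 reads per KO library and from 8546267 to 10702215 per WT library. All KO libraries came from lane 2 and all WT libraries from lane 1, under different run names in the labels, so that lane, run and genotype cannot be told apart. Arhgef1 itself stood at 115, 128 and 144 CPM (read counts scaled to the size of the library) in KO replicates 1, 2 and 3, against 287, 317 and 246 CPM in WT replicates 1, 2 and 3. It was called lower (log2 fold change -1.13 ± 0.11, SE; edgeR adjusted p = 6.96e-06), with the KO mean at 45.5% of the WT mean, so that reads of the gene remained in the KO libraries. The 12 cDC2 markers summed to 15478 to 16606 CPM in KO and 18416 to 20600 CPM in WT libraries, and none was at 0 in all libraries, while 6 of the 12 were lower (median log2 fold change -0.29).

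Cells copy their DNA once per division, and the breaks, crosslinks, mismatches and damaged bases met on the way are dealt with by separate sets of proteins. Homologous recombination copies the lost stretch from the sister chromatid and works mainly in S and G2 phase, whereas non-homologous end joining rejoins broken ends at any stage. Many recombination, Fanconi and checkpoint genes are transcribed most strongly in dividing cells, while the ATM, ATR and DNA-PK kinases and the Ku proteins are present in resting cells too.

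In the knockout 19 of the 41 genes were higher and 0 were lower, at an adjusted p under 0.05 in edgeR's quasi-likelihood test across 11504 genes. Over all genes tested, 5.09% were higher and 4.58% lower, together 9.67%. By DESeq2 also 19 were higher and 0 lower, against 6.74% higher and 6.01% lower over all genes with a DESeq2 adjusted p. At an unadjusted edgeR p under 0.05, 23 were higher and 1, Lig4, was lower, against 11.6% higher and 10.7% lower over all genes tested. The median log2 fold change of the 41 genes was 0.53, against 0.00032 over all genes tested. The 19 genes were the recombination genes Brca1, Brca2, Bard1, Rad54l, Rad54b, Blm and Rad50, the Fanconi genes Brip1, Fancd2, Fanci and Fancm, the checkpoint kinase gene Chek1, the fork genes Atad5, Rad18 and Pif1, the base excision and single-strand break genes Neil3, Xrcc1 and Parp1, and the end-joining polymerase gene Polq. Their log2 fold changes ran from 0.31 for Rad50 to 1.91 for Pif1, with a median of 0.74, and 5 of them were at least 2-fold higher. In 24 of the 41 genes all KO libraries lay above all WT libraries (13.7% of all genes tested), in 2 they lay below (13.5% of all genes tested), and in 15 the groups overlapped. Without WT replicate 1 the number of higher genes was 11, and it was 13 to 15 when any other single library was left out. The calls of Brca1, Bard1, Rad54b, Blm, Brip1, Atad5, Pif1, Neil3, Parp1 and Polq, 10 in all, held under each of the 14 alternatives tried.

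**Figure D1:**
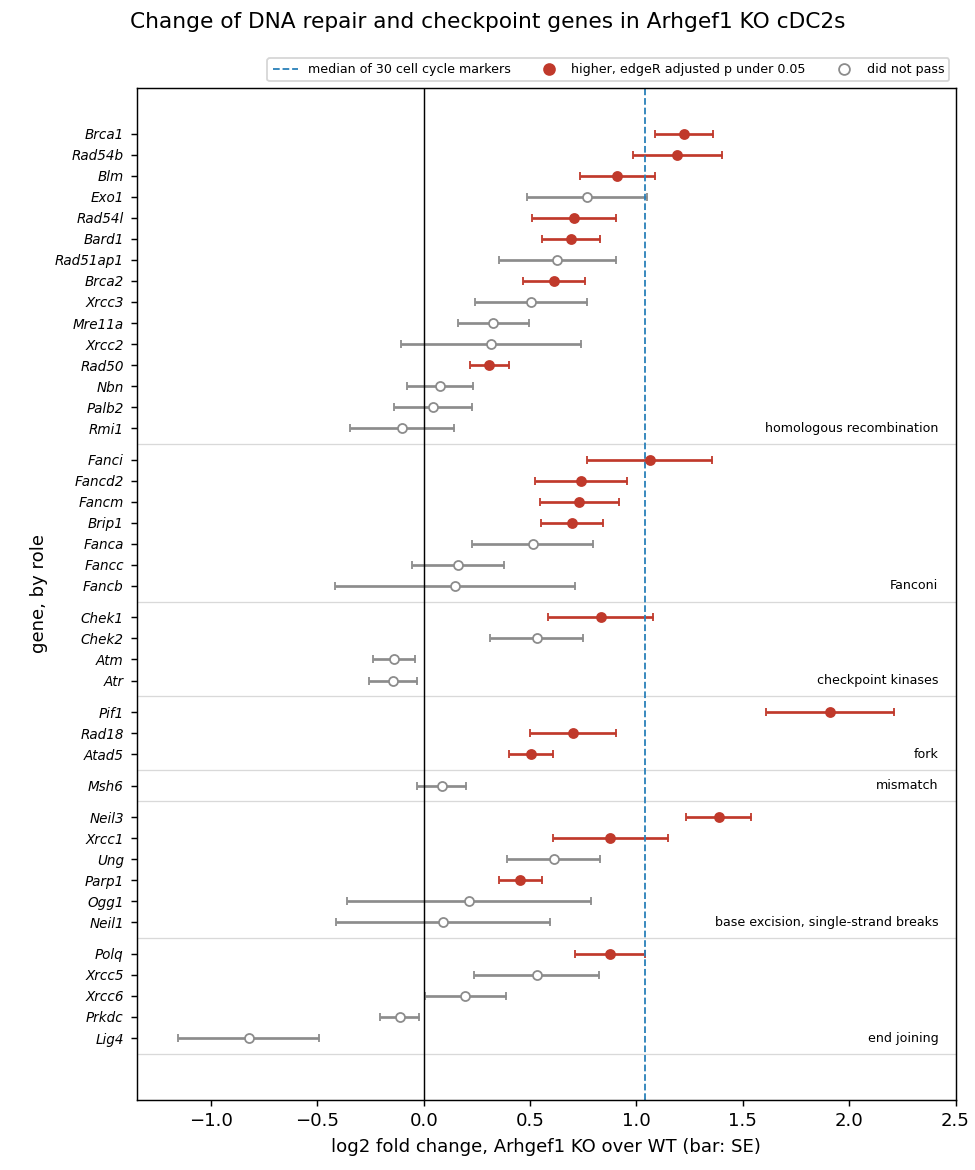
Log2 fold change of each of the 41 genes, KO over WT, with its SE, grouped by role. Filled points passed the test; the dashed line is the median of 30 cell cycle markers at 1.04. The 19 genes that passed are all to the right of 0, and Pif1 (1.91), Neil3 (1.39), Brca1 (1.22), Rad54b (1.19) and Fanci (1.06) lie to the right of the dashed line.

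Markers of cycling cells moved in the same libraries. Of 30 cell cycle markers 28 were higher (93.3%, against 5.09% of all genes tested) and 0 lower, with a median log2 fold change of 1.04. Their CPM summed to 4814, 5612 and 5080 in KO replicates 1, 2 and 3, against 2801, 2343 and 2609 in WT replicates 1, 2 and 3. Mki67, the proliferation marker, averaged 1641 ± 139 CPM in KO and 823 ± 78.7 CPM in WT cells (SD, n = 3 each; log2 fold change 0.997 ± 0.082), and Top2a, the topoisomerase of dividing cells, 717 ± 67.4 CPM in KO and 347 ± 47.8 CPM in WT cells. Taking the mean of log2(CPM + 1) over the 41 repair and checkpoint genes, KO replicates 1, 2 and 3 stood at 4.97, 5.09 and 5.05 and WT replicates 1, 2 and 3 at 4.56, 4.54 and 4.57. On the same scale the cell cycle markers stood at 6.29, 6.53 and 6.44 in KO and at 5.56, 5.33 and 5.50 in WT replicates. Both sets separated the genotypes in every library, and KO replicate 2 had the highest mean and KO replicate 1 the lowest among KO libraries in both. Among WT libraries replicate 2 had the lowest mean in both sets. The highest WT mean was in replicate 3 for the repair and checkpoint genes and in replicate 1 for the cell cycle markers. In bulk RNA a larger share of cycling cells and more RNA of these genes per cell cannot be told apart. The part of cell cycle in the changes below was not tested.

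Markers of other blood cells were present at various levels. The 11 B cell and plasma cell markers summed to 89.2 to 113 CPM in KO and 63.4 to 122 CPM in WT libraries, and 0 of the 9 tested passed in edgeR or DESeq2. At an unadjusted edgeR p under 0.05 only 1 of them, Igj, was higher. The 6 germinal centre B cell markers summed to 300.0 to 350 CPM in KO and 322 to 375 CPM in WT libraries, most of it Bcl6, and 1 of 4 tested, Mybl1, was higher (0.74 ± 0.23). The 18 macrophage markers were lower in 14 cases (77.8%, against 4.58% of all genes tested), with a median of -1.81. They summed to 536 to 693 CPM in KO and 1010 to 1497 CPM in WT libraries. No entry of these lists was at 0 in all libraries. The part of other cells in the repair genes was not tested.

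The promoters of the genes were read from RefSeq (GRCm38.p6, the assembly of mm10), as the 250 bases before the annotated start. They are shown because E2F, the factor family that drives S-phase genes, and the CHR element, through which the DREAM and MuvB complexes time G2 and M phase genes, are the best known sequence links between the cell cycle and repair genes. Of the 41 genes 29 had exactly 1 start in the table. The E2F letters searched, on both strands, were TTTCCCGC, TTTGGCGC, TTTCGCGC and TTTGCCGC, the CHR letters were TTTGAA, and CCAAT was searched as the box bound by NF-Y; none of these letter strings contains another. E2F letters stood in 4 of the 29 promoters (13.8%, against 3.96% of the 6593 promoters of tested genes with 1 start), CHR letters in 2 (6.9% against 10.7%) and CCAAT in 16 (55.2% against 38.3%). Every promoter with E2F or CHR letters is printed 5′ to 3′, with those letters in capitals.
Bard1, chr1:71102973-71103222, minus strand: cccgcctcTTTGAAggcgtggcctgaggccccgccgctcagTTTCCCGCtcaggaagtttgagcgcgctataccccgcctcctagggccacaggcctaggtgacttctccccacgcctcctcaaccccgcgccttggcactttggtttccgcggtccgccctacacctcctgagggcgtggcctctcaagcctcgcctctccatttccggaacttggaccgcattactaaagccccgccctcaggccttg
Brca2, chr5:150522371-150522620, plus strand: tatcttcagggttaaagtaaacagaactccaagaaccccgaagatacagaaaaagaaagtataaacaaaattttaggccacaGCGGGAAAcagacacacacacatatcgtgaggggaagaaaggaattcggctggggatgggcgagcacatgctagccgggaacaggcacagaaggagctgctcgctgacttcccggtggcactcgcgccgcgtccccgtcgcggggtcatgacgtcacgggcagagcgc
Polq, chr16:37011536-37011785, plus strand: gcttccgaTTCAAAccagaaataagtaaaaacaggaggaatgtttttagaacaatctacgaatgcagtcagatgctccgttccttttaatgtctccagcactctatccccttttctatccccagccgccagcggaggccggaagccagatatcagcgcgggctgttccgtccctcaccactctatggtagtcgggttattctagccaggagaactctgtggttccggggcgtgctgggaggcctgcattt
Chek2, chr5:110839733-110839982, plus strand: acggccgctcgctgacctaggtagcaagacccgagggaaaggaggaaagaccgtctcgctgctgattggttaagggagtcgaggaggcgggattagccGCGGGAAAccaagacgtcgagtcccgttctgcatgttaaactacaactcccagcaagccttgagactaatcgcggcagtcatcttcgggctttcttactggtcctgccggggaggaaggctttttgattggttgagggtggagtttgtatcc
Xrcc6, chr15:82016119-82016368, plus strand: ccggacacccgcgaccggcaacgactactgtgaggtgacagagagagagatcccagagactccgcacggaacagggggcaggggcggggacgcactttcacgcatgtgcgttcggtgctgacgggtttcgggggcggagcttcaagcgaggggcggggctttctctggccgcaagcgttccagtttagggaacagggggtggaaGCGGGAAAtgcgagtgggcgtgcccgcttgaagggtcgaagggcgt
Bard1 holds both kinds, Brca2, Chek2 and Xrcc6 hold E2F letters and Polq holds CHR letters. Bard1, Brca2 and Polq were higher in the knockout, whereas Chek2 and Xrcc6 did not pass the test. Among promoters of genes called higher, E2F letters stood in 2 of 13, CHR letters in 2 and CCAAT in 5 (38.5%). Among those not called higher E2F letters stood in 2 of 16, CHR letters in 0 and CCAAT in 11 (68.8%). Most of these 13 promoters of genes called higher, those of Brca1, Neil3 and Chek1 among them, had no E2F or CHR letters in this window. Brca1 did hold CCAAT. The other genes called higher were not searched. Rad54b, Rad50, Fancd2 and Pif1 had no promoter entry under these symbols, and Rad54l and Rad18 did not have exactly 1 start. A match is a description of the letters and not of a bound site.

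Homologous recombination genes were higher in 7 of 15 cases (46.7%, against 5.09% of all genes tested) and lower in 0. Their median log2 fold change was 0.61. Brca1, the ubiquitin ligase subunit that directs broken ends to recombination, had 78.0, 93.6 and 88.8 CPM in KO replicates 1, 2 and 3, against 35.3, 40.6 and 35.7 CPM in WT replicates 1, 2 and 3. Every KO library lay above every WT library, and the mean fold was 2.33 (1.22 ± 0.14; edgeR adjusted p = 2.08e-05). Its binding partner Bard1 had 83.9, 92.05 and 71.0 CPM in KO and 49.4, 47.9 and 55.6 CPM in WT replicates, a smaller rise of 0.69 ± 0.14 (edgeR adjusted p = 0.00308). Brca2, a mediator of strand exchange, had 76.9, 60.2 and 70.8 CPM in KO and 40.4, 51.1 and 44.6 CPM in WT replicates. The groups did not overlap (0.61 ± 0.14; edgeR adjusted p = 0.0116). Leaving out WT replicate 1 ended the call (0.53). Palb2, the bridge between Brca1 and Brca2, did not pass. It had 25.03, 25.2 and 31.6 CPM in KO and 29.5, 25.4 and 24.5 CPM in WT replicates, and the values of the genotypes were intermixed (0.04 ± 0.18; edgeR adjusted p = 0.926).

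The motor proteins of recombination were higher as well. Rad54b, a DNA translocase of strand exchange, had 32.6, 38.3 and 24.6 CPM in KO and 14.5, 14.4 and 12.9 CPM in WT replicates (1.19 ± 0.21; edgeR adjusted p = 0.00118). Its relative Rad54l had 26.2, 28.0 and 31.7 CPM in KO and 18.3, 14.6 and 19.8 CPM in WT replicates (0.71 ± 0.20; edgeR adjusted p = 0.0302). Both separated the genotypes in every library, but the call of Rad54l was lost without KO replicate 2 (0.72), KO replicate 3 (0.63), WT replicate 1 (0.74) or WT replicate 2 (0.59). Rad51ap1, an accessory factor of recombination, also lay higher in all KO libraries, at 11.2, 14.7 and 11.9 CPM in KO and 8.53, 8.29 and 7.55 CPM in WT replicates, and did not pass (0.63 ± 0.27; edgeR adjusted p = 0.176). The recombination genes Xrcc2 (0.32 ± 0.42) and Xrcc3 (0.51 ± 0.26) did not pass either. Xrcc2 was the lowest of the 41 genes per length, at 0.912 ± 0.126 CPM per kb in KO and 0.730 ± 0.105 CPM per kb in WT cells (SD, n = 3 each). Exons of Rad54b share 2068 bases with Fsbp on the same strand and those of Rad54l 1184 bases with Lrrc41 on the opposite strand, so that some reads there could have been split or dropped. Fsbp stood at 0.649 CPM in KO and 0.253 CPM in WT cells on average, and Lrrc41 had a log2 fold change of 0.31 ± 0.15 and did not pass.

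Blm, the helicase that dissolves crossed recombination intermediates, had 40.5, 52.4 and 41.9 CPM in KO and 23.8, 20.4 and 27.6 CPM in WT replicates. All KO libraries were above all WT libraries (0.91 ± 0.18; edgeR adjusted p = 0.00259). Rmi1, a subunit of the same complex, had 16.3, 15.6 and 11.9 CPM in KO and 17.5, 12.4 and 16.9 CPM in WT replicates, which overlapped (-0.10 ± 0.24; edgeR adjusted p = 0.862). A630055G03Rik, which RefSeq lists as another name of the third subunit gene Rmi2, averaged 7.52 ± 3.16 CPM in KO and 5.45 ± 2.70 CPM in WT cells (SD, n = 3 each) and did not pass (0.46 ± 0.41). Exo1, the nuclease that trims broken ends and also serves mismatch repair, had 16.995, 20.9 and 15.1 CPM in KO and 6.99, 9.44 and 14.7 CPM in WT replicates. The lowest KO value lay just above the highest WT value, and the gene did not pass (0.77 ± 0.28; edgeR adjusted p = 0.101). Without WT replicate 3 it did (1.11).

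The MRN complex senses double-strand breaks and activates Atm, and of its 3 subunit genes Rad50 passed the test. Rad50, the most abundant of the 41 genes per length at 50.6 ± 3.11 CPM per kb in KO and 40.8 ± 3.43 CPM per kb in WT cells (SD, n = 3 each), had 291, 262 and 263 CPM in KO and 206, 240.4 and 212 CPM in WT replicates. The rise of 1.24-fold passed the test (0.31 ± 0.09; edgeR adjusted p = 0.0425), and the call was lost without KO replicate 1 (0.26), KO replicate 2 (0.33), KO replicate 3 (0.33), WT replicate 1 (0.27) or WT replicate 3 (0.28), and with upper-quartile scaling (0.28). Mre11a, the nuclease subunit, had 43.9, 47.9 and 34.4 CPM in KO and 32.6, 37.9 and 29.96 CPM in WT replicates (0.33 ± 0.17; edgeR adjusted p = 0.263). Nbn, the subunit that binds Atm, had 37.8, 45.2 and 36.7 CPM in KO and 38.0, 35.1 and 40.5 CPM in WT replicates (0.07 ± 0.16; edgeR adjusted p = 0.836). Both overlapped between genotypes and did not pass, although the log2 fold change of Mre11a was as large as that of Rad50.

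**Figure D2:**
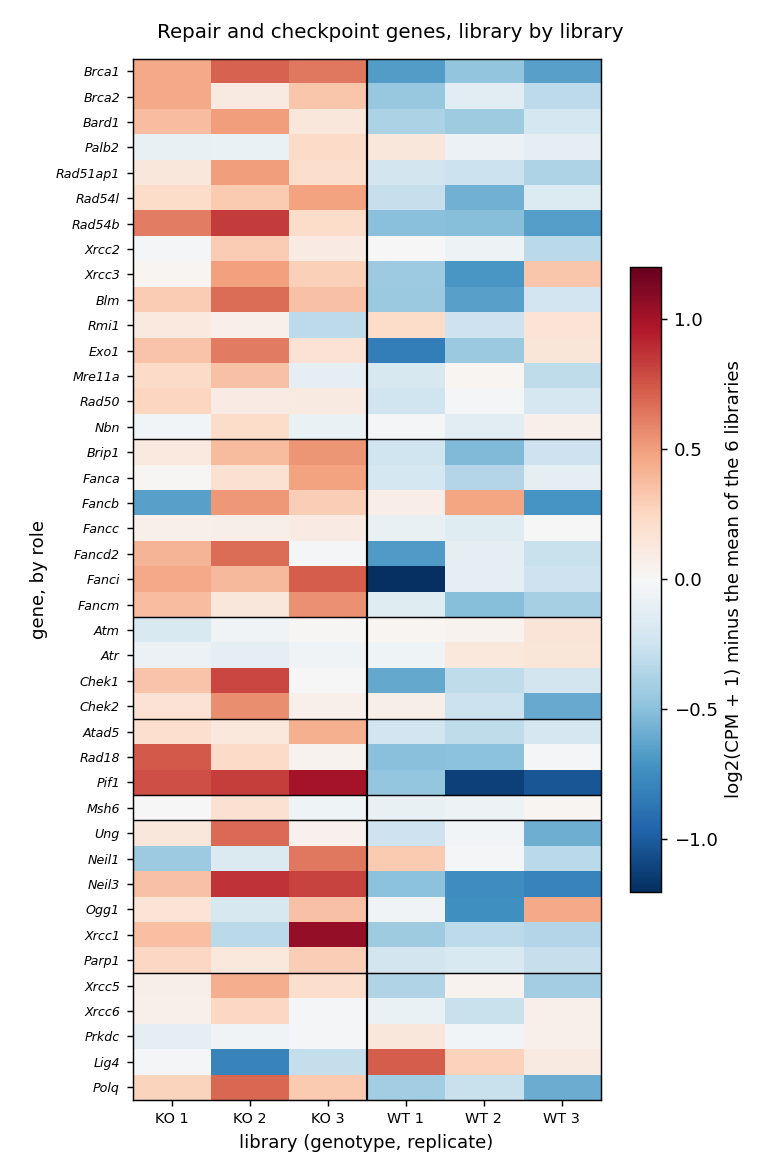
Level of each of the 41 genes in each library, as log2(CPM + 1) minus the mean of the 6 libraries (red higher, blue lower), with KO libraries left of WT libraries and lines between roles. Brca1, Pif1 and Neil3 are red in all KO and blue in all WT libraries, Atm, Atr and Prkdc are pale throughout, and the colour of Xrcc1 comes mainly from KO replicate 3.

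The Fanconi anaemia pathway, which unhooks crosslinks between DNA strands, was higher in 4 of 7 genes and lower in 0 (median log2 fold change 0.70). The share called higher was 57.1%, against 5.09% of all genes tested. Brip1, a helicase that binds Brca1, had 62.5, 75.3 and 83.8 CPM in KO and 48.7, 39.6 and 48.5 CPM in WT replicates (0.70 ± 0.15; edgeR adjusted p = 0.00490). Fancm, the translocase that recognises stalled forks, had 35.2, 29.7 and 40.0 CPM in KO and 24.2, 18.7 and 20.2 CPM in WT replicates (0.73 ± 0.19; edgeR adjusted p = 0.0183). The genotypes did not overlap in either gene. Fancd2 and Fanci encode the pair of proteins that is ubiquitinated when the pathway is switched on. Fancd2 had 33.5, 40.5 and 24.6 CPM in KO and 15.3, 23.3 and 20.6 CPM in WT replicates (0.74 ± 0.22; edgeR adjusted p = 0.0386). Fanci had 18.9, 17.996 and 22.9 CPM in KO and 5.17, 12.4 and 11.2 CPM in WT replicates (1.06 ± 0.29; edgeR adjusted p = 0.0278). All KO values of both genes were above all WT values, with a wide spread within each genotype.

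The call of Brip1 held under each alternative, and those of the other Fanconi genes did not. Fancm lost its call without KO replicate 3 (0.62), WT replicate 2 (0.65) or WT replicate 3 (0.70), and Fanci without KO replicate 2 (1.13), KO replicate 3 (0.95) or WT replicate 1 (0.75). Fancd2 lost it without KO replicate 1 (0.73), KO replicate 2 (0.55), WT replicate 1 (0.58), WT replicate 2 (0.87) or WT replicate 3 (0.77), and with limma-voom (0.72). Exons of Fanci share 921 bases with Polg on the opposite strand, which had a log2 fold change of -0.52 ± 0.32 and did not pass. The core complex genes Fanca (0.51 ± 0.28), Fancc (0.16 ± 0.22) and Fancb (0.15 ± 0.56) did not pass. Fancc was the steadiest of them, with 17.1, 17.3 and 17.6 CPM in KO and 15.3, 14.7 and 16.5 CPM in WT replicates. Fancb was close to the detection limit, with 13, 45 and 45 reads in KO and 33, 39 and 12 reads in WT replicates.

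Of the 4 checkpoint kinase genes 1, Chek1, was higher and 0 were lower (median log2 fold change 0.20). Chek1, which halts the cycle when forks stall, had 21.9, 30.4 and 16.97 CPM in KO and 10.8, 13.6 and 14.5 CPM in WT replicates. All KO libraries lay above the WT ones (0.83 ± 0.25; edgeR adjusted p = 0.0401). The call was lost without KO replicate 1 (0.87), KO replicate 2 (0.58), WT replicate 1 (0.71), WT replicate 2 (0.87) or WT replicate 3 (0.92), and with limma-voom (0.79). Chek2, the effector of Atm, had 25.5, 33.6 and 23.6 CPM in KO and 23.8, 18.8 and 14.5 CPM in WT replicates, which overlapped (0.53 ± 0.22; edgeR adjusted p = 0.149). Atm, activated by double-strand breaks, had 137, 151 and 158 CPM in KO and 158, 161 and 173 CPM in WT replicates (-0.14 ± 0.10; edgeR adjusted p = 0.441). Atr, activated by single-stranded DNA, had 87.2, 84.8 and 88.7 CPM in KO and 87.9, 99.8 and 101 CPM in WT replicates (-0.15 ± 0.11; edgeR adjusted p = 0.497). For Atm the KO libraries lay just below the WT ones and for Atr they overlapped, and neither passed.

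All 3 genes of fork protection and bypass were higher, against 5.09% of all genes tested. Pif1, a helicase that unwinds G-quadruplexes and displaces telomerase, had 15.6, 16.2 and 18.4 CPM in KO and 6.03, 3.45 and 3.77 CPM in WT replicates. The 3.76-fold rise was the largest of the 41 genes (1.91 ± 0.30; edgeR adjusted p = 4.26e-04), and it rested on 134, 157 and 216 reads in KO and 63, 30 and 32 reads in WT replicates. Atad5, which unloads the sliding clamp PCNA after replication, had 186, 177 and 218 CPM in KO and 138, 131 and 141 CPM in WT replicates (0.50 ± 0.10; edgeR adjusted p = 0.00390). Rad18, the ubiquitin ligase that marks PCNA for bypass polymerases, had 54.1, 37.8 and 33.2 CPM in KO and 22.3, 22.6 and 31.8 CPM in WT replicates (0.70 ± 0.20; edgeR adjusted p = 0.0363). Its groups nearly touched, at 33.2 CPM in KO replicate 3 and 31.8 CPM in WT replicate 3. Rad18 lost its call without KO replicate 1 (0.48), KO replicate 2 (0.76), WT replicate 1 (0.61) or WT replicate 2 (0.62).

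**Figure D3:**
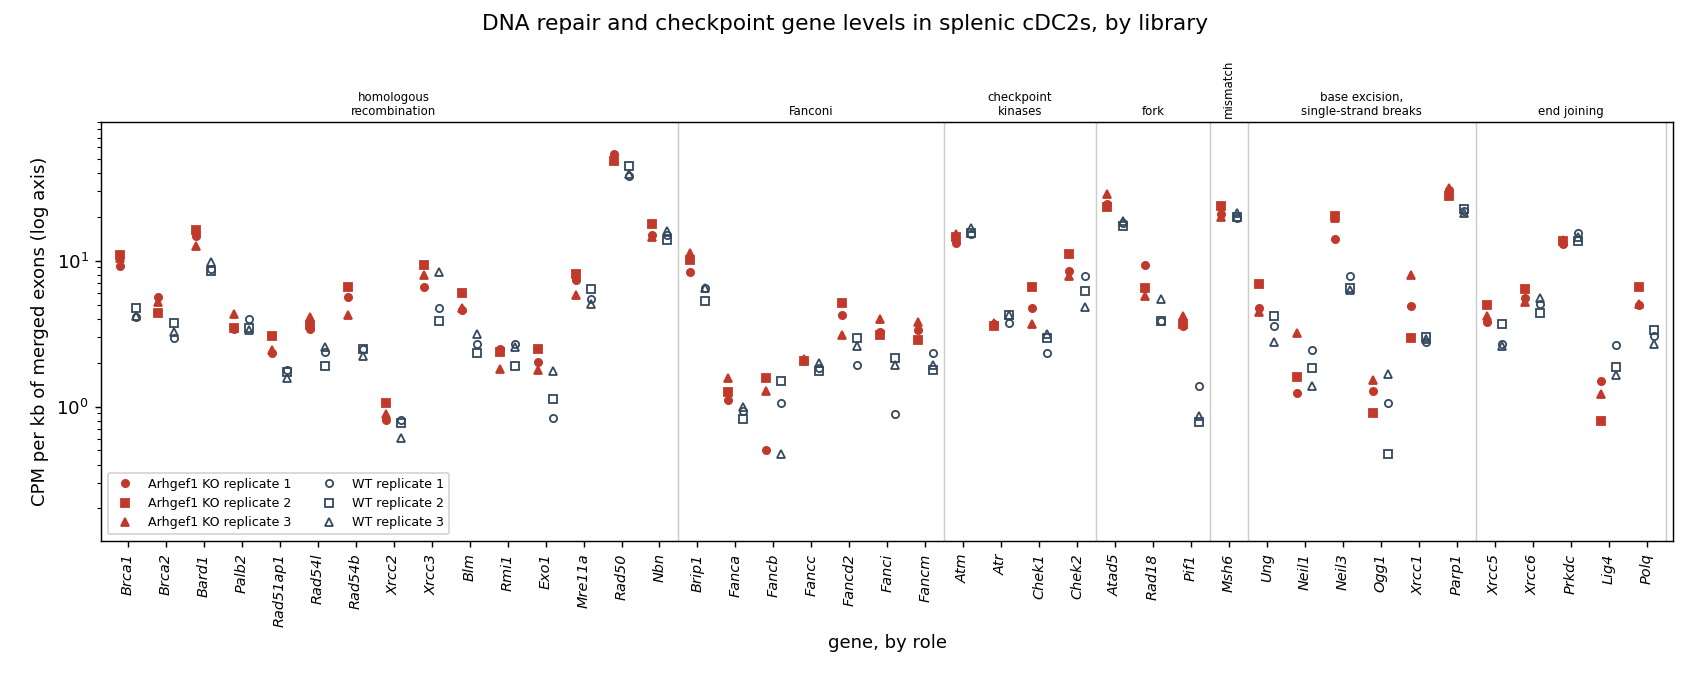
Level of each of the 41 genes in each library as CPM per kb of merged exons, on a log axis, with filled KO points left of open WT points for each gene. Levels span from Xrcc2, at 0.912 CPM per kb in KO and 0.730 in WT cells, to Rad50, at 50.6 in KO and 40.8 in WT cells, and the KO points of Pif1, Neil3 and Brca1 stand clear above the WT points.

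Mismatch repair was represented by Msh6, a subunit of the complex that recognises single mismatches. It was among the more abundant of the 41 genes, at 21.5 ± 1.88 CPM per kb in KO and 20.3 ± 0.859 CPM per kb in WT cells (SD, n = 3 each), and had 90.6, 103 and 87.3 CPM in KO and 85.2, 87.0 and 92.4 CPM in WT replicates. The values overlapped (0.09 ± 0.12; edgeR adjusted p = 0.735). Of 6 other mismatch repair genes in the count data, 0 were higher and 0 lower in edgeR or DESeq2 (median 0.07). None of these 6 had an unadjusted p under 0.05.

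Base excision and single-strand break genes were higher in 3 of 6 cases and lower in 0. Neil3, a glycosylase that opens oxidised bases and unhooks crosslinks in dividing cells, had 78.8, 113 and 108 CPM in KO and 43.5, 36.3 and 34.9 CPM in WT replicates. Its rise of 2.61-fold held in every library (1.39 ± 0.15; edgeR adjusted p = 2.08e-05). The related glycosylase gene Neil1 had 2.33, 2.999 and 5.97 CPM in KO and 4.60, 3.45 and 2.60 CPM in WT replicates, and Ogg1, which removes oxidised guanine, 2.79, 1.97 and 3.33 CPM in KO and 2.30, 1.04 and 3.66 CPM in WT replicates. Both were near the bottom of the range in CPM, overlapped and did not pass. Neil1 and Ogg1 had log2 fold changes of 0.09 ± 0.50 and 0.21 ± 0.58. Ung, which removes uracil from DNA, had 25.8, 38.0 and 24.2 CPM in KO and 19.5, 22.8 and 15.2 CPM in WT replicates, all KO above all WT, and did not pass (0.61 ± 0.22; edgeR adjusted p = 0.0919).

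Parp1, which marks strand breaks with poly-ADP-ribose, had 161, 148 and 167 CPM in KO and 116, 119 and 112 CPM in WT replicates. The rise of 1.37-fold was small beside those of Neil3 or Brca1 but larger than the spread within either genotype (0.45 ± 0.10; edgeR adjusted p = 0.00713). Xrcc1, the scaffold that Parp1 recruits to nicks, was uneven. It had 28.5, 17.3 and 46.6 CPM in KO and 16.1, 17.4 and 16.99 CPM in WT replicates, so that KO replicate 2 lay within the WT range. It was called higher (0.88 ± 0.27; edgeR adjusted p = 0.0459), the only called gene of the 41 whose groups overlapped. Without KO replicate 3 the log2 fold change was 0.44 and the call was lost, as it was without KO replicate 1 (0.93), WT replicate 1 (0.85), WT replicate 2 (0.90) or WT replicate 3 (0.89), and with upper-quartile scaling (0.86) or limma-voom (0.80). Xrcc1 (mm10 chromosome 7, positions 24546289 to 24573440) lies 329 kb from Arhgef1, and is the nearest to it of the 4 genes of the set on chromosome 7.

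End joining, which needs no sister chromatid, was higher in 1 of 5 genes and lower in 0. That gene was Polq, the polymerase of the mutagenic end-joining route used when recombination fails, with 47.8, 64.2 and 49.2 CPM in KO and 29.4, 32.7 and 25.8 CPM in WT replicates (0.87 ± 0.16; edgeR adjusted p = 0.00224). Every KO library was above every WT library. Over all genes tested 5.09% were higher and 4.58% lower. With 5 genes, 1 of them called, the share called does not set end joining apart from the other pathways. Prkdc, the catalytic subunit of DNA-PK, had 172, 180.3 and 183 CPM in KO and 203, 181 and 193 CPM in WT replicates (-0.11 ± 0.09; edgeR adjusted p = 0.530). The Ku genes Xrcc6, with 24.8, 28.5 and 23.4 CPM in KO and 22.5, 19.6 and 24.9 CPM in WT replicates (0.19 ± 0.19), and Xrcc5, with 9.66, 12.7 and 10.7 CPM in KO and 6.90, 9.44 and 6.61 CPM in WT replicates (0.53 ± 0.29), did not pass. Lig4, the ligase that seals the ends, had the lowest log2 fold change of the 41 genes. It had 7.80, 4.14 and 6.31 CPM in KO and 13.8, 9.79 and 8.61 CPM in WT replicates, all KO below all WT, and did not pass (-0.82 ± 0.33; edgeR adjusted p = 0.140).

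For 8 pairs of genes whose products bind each other or act in the same signalling step, the ratio of CPM per kb was compared. The pairs were chosen after the values were seen, and the adjustment over pairs does not allow for that choice. Brca1 stood at 0.616, 0.674 and 0.829 times the level of Bard1 in KO replicates 1, 2 and 3, against 0.473, 0.563 and 0.427 times in WT replicates 1, 2 and 3. Blm stood at 1.86, 2.51 and 2.65 times the level of Rmi1 in KO and at 1.01, 1.23 and 1.22 times in WT replicates. Atr stood at 0.781, 0.547 and 1.03 times the level of Chek1 in KO and at 1.59, 1.44 and 1.36 times in WT replicates. The size of this ratio depends on the merged exon lengths, 23.629 kb for Atr and 4.635 kb for Chek1. In CPM, Atr lay above Chek1 in every library, so the ratio does not show which gene was more abundant. The lengths cancel when the genotypes are compared. In Brca1 over Bard1, Blm over Rmi1, Atr over Chek1 and Brip1 over Brca1 the genotypes did not overlap. Each gave p = 0.10 in a two-sided exact permutation test, the smallest that 3 against 3 libraries allow, and 0.20 after adjustment over the 8 pairs. For Rad50 over Mre11a the ratio was 7.32, 6.03 and 8.40 in KO and 6.98, 6.998 and 7.79 in WT replicates, with a difference of log2 ratios of -0.01 (p = 1.0, exact permutation test). Fanci over Fancd2, Xrcc6 over Xrcc5 and Nbn over Mre11a overlapped between genotypes.

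**Figure D4:**
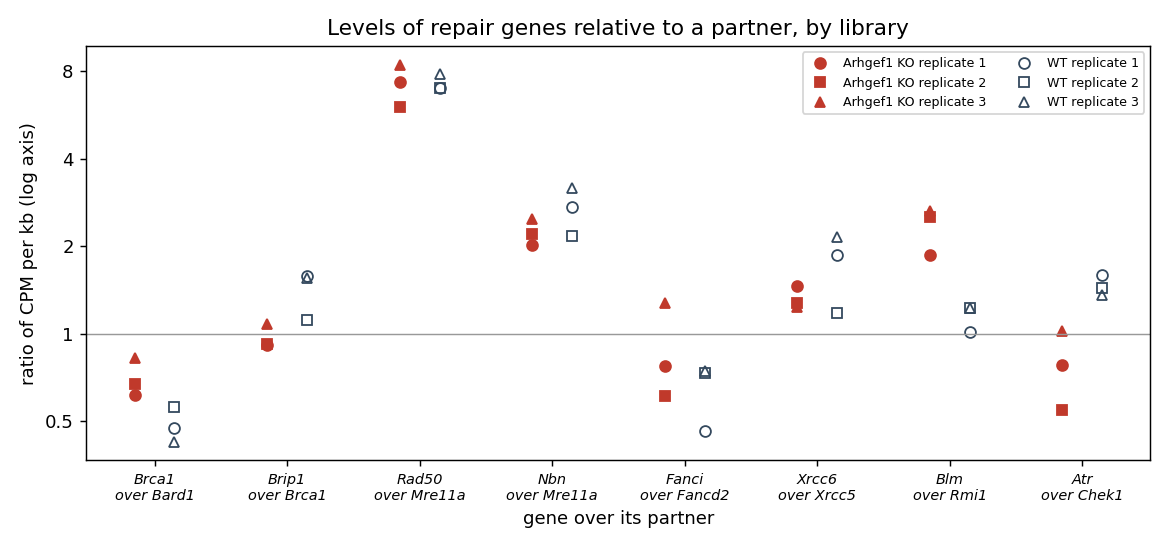
Ratio of CPM per kb of 8 genes over a partner in each library, on a log axis, with filled KO points left of open WT points. The ratios of Brca1 to Bard1 and of Blm to Rmi1 are higher in all KO libraries, those of Brip1 to Brca1 and of Atr to Chek1 are lower, and the remaining 4 overlap.

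Further genes of the same pathways were taken from lists of known members outside the 41. Of 40 other recombination genes 7 were higher and 0 lower in edgeR and in DESeq2 (17.5% higher, against 5.09% of all genes tested; median 0.29), and 9 were higher and 1 lower at an unadjusted edgeR p under 0.05. Topbp1, the activator of Atr, averaged 299 ± 12.96 CPM in KO and 180.0 ± 18.5 CPM in WT cells (0.73 ± 0.09), Fignl1, an ATPase gene of recombination, rose by 0.76 ± 0.16 and 4930422G04Rik (Zgrf1 in RefSeq), a helicase gene, by 0.64 ± 0.13. Of 17 other Fanconi genes 3 (17.6%) were higher and 0 lower in either tool (median 0.12; 4 higher and 1 lower at an unadjusted edgeR p under 0.05). They were Uhrf1, better known for maintaining DNA methylation (1.03 ± 0.16), Rfwd3, a ubiquitin ligase (0.75 ± 0.14), and Usp1, which removes ubiquitin from Fancd2 (0.47 ± 0.12). Usp1 lost its call without KO replicate 2 (0.43), WT replicate 1 (0.43) or WT replicate 2 (0.43). Errors of means are SD with n = 3, and errors of log2 fold changes are SE.

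Other damage sensing and checkpoint genes were higher in 7 of 20 cases (35.0%) and lower in 0 (median 0.48). By DESeq2 10 were higher and 0 lower, and at an unadjusted edgeR p under 0.05 they were 13 higher and 0 lower. Over all genes 5.09% were higher in edgeR, 6.74% in DESeq2 and 11.6% at the unadjusted edgeR threshold. Clspn, the adaptor through which Atr activates Chek1, averaged 72.5 ± 8.65 CPM in KO and 35.7 ± 5.78 CPM in WT cells (SD, n = 3 each; 1.02 ± 0.15; edgeR adjusted p = 2.96e-04). The histone variant gene H2afx, whose product is phosphorylated around breaks, rose by 0.997 ± 0.175. Pkmyt1 (1.06 ± 0.20) and Wee1 (0.89 ± 0.18), the kinases that hold Cdk1 inactive before mitosis, rose too. The remaining genes of this list called higher in edgeR were Cdc25c (1.65 ± 0.36), Trp53 (0.37 ± 0.10), the gene of p53, and Timeless (0.49 ± 0.15). Of 18 other base excision and single-strand break genes 3 (16.7%) were higher and 0 lower in either tool (median 0.10). They were Lig1 (0.80 ± 0.14) and Fen1 (0.88 ± 0.24), which also join Okazaki fragments, and Parp2 (0.45 ± 0.13). At an unadjusted edgeR p under 0.05, 7 of the 18 were higher and 3 lower, against 11.6% and 10.7% of all genes tested. Fen1 lost its call without KO replicate 2 (0.75), KO replicate 3 (0.71), WT replicate 1 (0.80) or WT replicate 2 (0.83), and Parp2 without KO replicate 1 (0.32), KO replicate 3 (0.47), WT replicate 1 (0.50), WT replicate 2 (0.39) or WT replicate 3 (0.47).

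Of 8 other end-joining genes 0 were higher and 2 lower in edgeR, in DESeq2 and at an unadjusted edgeR p under 0.05 (25% lower, against 4.58% of all genes tested; median -0.06). Dclre1c, the Artemis nuclease that opens hairpin ends, averaged 166 ± 20.4 CPM in KO and 235 ± 22.7 CPM in WT cells (-0.50 ± 0.11; edgeR adjusted p = 0.00573). Fam35a, which RefSeq names Shld2, a shieldin subunit that protects ends from resection, averaged 30.7 ± 1.47 CPM in KO and 46.5 ± 1.71 CPM in WT cells (-0.60 ± 0.15; edgeR adjusted p = 0.0161; SD, n = 3 each). In both genes all KO libraries lay below all WT libraries. Dclre1c lost its call without WT replicate 1 (-0.42), and Fam35a without WT replicate 1 (-0.58) or WT replicate 3 (-0.58).

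Of 21 nucleotide excision repair genes 1 was higher, Ddb1 (0.47 ± 0.11), part of the complex that finds ultraviolet damage, and 1 lower, Ercc5 (-0.69 ± 0.14), the nuclease that cuts beside it, with a median of 0.06. These shares, 4.76% each way, were near those of all genes tested, 5.09% higher and 4.58% lower. Of 12 translesion synthesis genes 2 (16.7%) were higher and 1 (8.33%) lower (median 0.06). The sliding clamp gene Pcna rose by 0.60 ± 0.12 and the bypass polymerase gene Polh by 0.80 ± 0.19, and the helicase-like ligase gene Hltf fell by 0.34 on the log2 scale. Polh lost its call without KO replicate 2 (0.64) or WT replicate 3 (0.74), and Hltf without KO replicate 2 (-0.33), KO replicate 3 (-0.32), WT replicate 1 (-0.32), WT replicate 2 (-0.36) or WT replicate 3 (-0.34).

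Target genes of p53, the transcription factor that damage signalling stabilises, had a median of 0.04 on the log2 scale, and 12 of the 22 tested were above 0. In edgeR 0 rose and 3 fell (13.6% lower, against 4.58% of all genes tested), and the counts were the same in DESeq2. At an unadjusted edgeR p under 0.05 they were also 0 and 3, and there 10.7% of all genes tested were lower. The antiproliferative gene Btg2 averaged 478 ± 44.2 CPM in KO and 741 ± 58.4 CPM in WT cells (-0.63 ± 0.09; edgeR adjusted p = 1.34e-04), Trp53inp1 50.5 ± 11.1 CPM in KO and 90.8 ± 3.94 CPM in WT cells (-0.85 ± 0.15) and Sesn1 67.9 ± 10.6 CPM in KO and 98.1 ± 11.4 CPM in WT cells (-0.53 ± 0.14; SD, n = 3 each). Sesn1 lost its call without KO replicate 2 (-0.42), WT replicate 2 (-0.55) or WT replicate 3 (-0.43). Cdkn1a, the cyclin kinase inhibitor that is the best known p53 target, averaged 21.5 ± 3.56 CPM in KO and 15.8 ± 1.09 CPM in WT cells and did not pass (0.45 ± 0.21; edgeR adjusted p = 0.226). It was among 3 of the 22 targets in which all KO libraries lay above all WT libraries, and in 5 they lay below. The others of those 3 were Mdm2 (0.19 ± 0.11) and Ccng1 (0.18 ± 0.09), which did not pass either. Over all genes tested these shares were 13.7% above and 13.5% below.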

How the data were processed

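RNA of splenic cDC2s was sequenced in 3 Arhgef1-/- and 3 WT libraries, grouped by their titles. The table deposited by the authors holds whole-number counts, unnormalized, with a column per library. Per the submitters' processing notes, STAR, HTSeq and DESeq2 were used with mm10. The sources used here give no versions, annotation or strand setting, so a gene and its antisense or overlapping partner may share reads, and 11 of the 41 genes share exon bases with other genes of the table. Genes were filtered with filterByExpr, scaled by TMM (factors 0.977 to 1.02) and tested with edgeR 4.0.16 (quasi-likelihood, genotype as the term) in R 4.3.3, with Benjamini-Hochberg adjustment over 11504 genes and a threshold of 0.05. CPM use TMM-scaled sizes. The SE was derived from the fold change and F. Lengths are merged exons of GENCODE vM21. The procedure was also run on simulated counts, and the outcome is not reported here. The simulation held no lane or run effect and cannot bear on one. Alternatives were DESeq2 1.42.0, limma-voom (limma 3.58.1), other scalings and filters, a replicate block and leaving out each library.

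The genes, lists and tests were chosen with earlier results of these data known, and no list was tested as a set. Genes named were all 41, Arhgef1, Mki67, Top2a and, in each other list, up to 4 with the smallest p, of which some are not reported here. A630055G03Rik, Cdc25c, Trp53, Timeless, Mdm2, Ccng1 and the genes sharing exons were added after their values were seen. Of 330 list entries 17 were matched by another RefSeq symbol and 11 had no match.

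Further markers were checked. Of 4 tested T and NK cell and 3 neutrophil and erythroid markers 0 passed in edgeR or DESeq2, and 0 had an unadjusted edgeR p under 0.05. In 9 cDC1 and plasmacytoid markers 1 was lower (11.1%), and in 4 monocyte markers 3 were lower (75.0%). Of 12 cDC2 markers 6 were lower (50.0%). Over all genes tested 4.58% were lower. Libraries of a genotype differed by more than counting noise (chi-square per degree of freedom 8.16 to 13.9).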

Additional observations from a re-analysis of the deposited data

How the results depend on the processing

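None of the 19 genes called higher changed direction under the 14 alternatives, and 10 kept their call under all of them. The count of higher genes was 15 to 19 under the alternatives that leave no library out, and 11 to 15 when 1 library was left out. No gene of the set was lower under any of the alternatives. Over all genes 586 were higher and 527 lower. Leaving out 1 library gave 310 to 583 higher and 264 to 489 lower genes. The counts of higher and lower genes were 319 and 311 without KO replicate 2, 334 and 264 without WT replicate 1, 310 and 315 without WT replicate 2 and 383 and 351 without WT replicate 3. The cause was not tested.

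Signs turned only in genes that did not pass. Over the fits that leave out 1 library the log2 fold change ran from -0.076 to 0.13 for Palb2, -0.24 to 0.032 for Rmi1, -0.028 to 0.14 for Nbn, -0.19 to 0.54 for Fancb, -0.41 to 0.34 for Neil1, -0.14 to 0.68 for Ogg1 and -0.014 to 0.39 for Poll, a polymerase gene of end joining.

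Replicate numbers are shared by the genotypes, but same-numbered libraries did not deviate together (correlations 0.0382, -0.0326 and -0.033 for numbers 1, 2 and 3). With the replicate block 496 genes were higher and 449 lower, and 15 of the 41 were higher. Rad50 (0.31), Chek1 (0.80), Rad18 (0.69) and Xrcc1 (0.77) lost their calls. Of the 7 genes of the set that averaged under 10 CPM, 0 were called.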
